A study of Schizosaccharomyces pombe with 2 samples.

Results

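The genes examined here encode the subunits of the RNA polymerases and of Mediator in the fission yeast *S. pombe*, compared between *sgo2*Δ and wt cells. A gene was included where a probe set names it alone on the platform under a symbol made of *rpa*, *rpb*, *rpc* or *med* and digits, or under *nuc1*, *ker1*, *srb8*, *srb10*, *srb11*, *pmc2* or *pmc6*. This rule took 42 of the 2896 genes that a probe set names singly, each with 1 probe set, and found no probe set with the symbol *pmc6*. The gene known by that synonym, *med18*, is listed on the platform as *sep11* and is described with the Mediator subunits outside the rule. By complex, 7 genes encode subunits particular to RNA polymerase I (RNAPI), 7 to RNAPII and 10 to RNAPIII, 2 are shared by RNAPI and RNAPIII, 5 are shared by all 3 polymerases and 11 belong to Mediator.

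The series holds 1 array of *sgo2*Δ cells (strain JP2247, *sgo2* deleted) and 1 array of wt cells (strain JK107). Both strains are *h*- and were growing exponentially at 32 °C in YES, a rich liquid medium, and 0.3 μg of poly(A) RNA of each was labelled with biotin for a GeneChip Yeast Genome 2.0 Array. The study asked whether gene expression depends on Sgo2, a shugoshin protein that binds centromeres and subtelomeres, and it also followed RNAPII on subtelomeric genes by chromatin immunoprecipitation, so the transcripts of the polymerases themselves are of interest. With 1 array per strain no difference has a replicate check, no test was made, and the strain cannot be told apart from the culture or the array.

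RNAPI makes the large ribosomal RNAs, RNAPII makes messenger RNAs and RNAPIII makes transfer RNAs and the 5S ribosomal RNA. Each enzyme is built around its own largest and second largest subunit, which form the active centre, and each has a protruding stalk of a pair of small subunits. Mediator is the large complex that passes signals from DNA-bound activators to RNAPII, and it consists of a head, a middle and a tail with a separable kinase module. The RNA was poly(A) selected, so these arrays describe the transcripts that encode the enzymes and not the ribosomal or transfer RNAs that RNAPI and RNAPIII make.

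The deposited values are array signals in linear units, scaled by the authors in GCOS 1.4, and the log2 ratio below is the log2 signal of *sgo2*Δ minus that of wt. A gene counted as measured where its brighter signal reached 100, which 2793 genes did, all 42 members among them. The median log2 ratio of the 2793 genes was 0.13, and the central 90% of them (percentiles 5 to 95) ran from -0.10 to 0.35. A member is therefore set against 0.13 rather than against 0. The deleted gene *sgo2* had a signal of 2.81 in *sgo2*Δ and of 582 in wt, at least 5.82-fold lower in *sgo2*Δ against a signal of 100. A further 33 probe sets whose symbols have the same letters in capitals are those of *S. cerevisiae*, and all were listed at 0 on both arrays, as the authors masked that species. Since equal amounts of RNA were labelled and the arrays were scaled, the signals are relative, and fewer cells of a cell cycle stage and less RNA per cell cannot be told apart.

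None of the polymerase and Mediator genes differed 2-fold between the strains. Of the 42, 0 reached a 2-fold higher signal in *sgo2*Δ (0.537% of all genes measured did) and 0 a 2-fold lower one (0.0358% of all genes). The same held for a finer threshold, a log2 ratio 0.32 away from that of the median gene, with 0 of 42 past it upwards (1.83% of all genes) and 0 of 42 past it downwards (2.08%). At these shares of all genes, about 0 or 1 of 42 is what the background itself gives, so the counts do not set the members apart. Their log2 ratios ran from -0.09 (*rpc53*) to 0.44 (*med20*), with a median of 0.19. Of the 42 members, 41 (97.6%) had a higher signal in *sgo2*Δ than in wt, as did 84.7% of all genes measured, and after quantile normalization 24 (57.1%) did, against 42.5% of all genes. Above the median gene lay 27 (64.3%), against 49.98% of all genes measured. Within 0.20 of the median gene on the log2 scale lay 39 of the 42 members, against 87.1% of all genes measured.

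**Figure D1:**
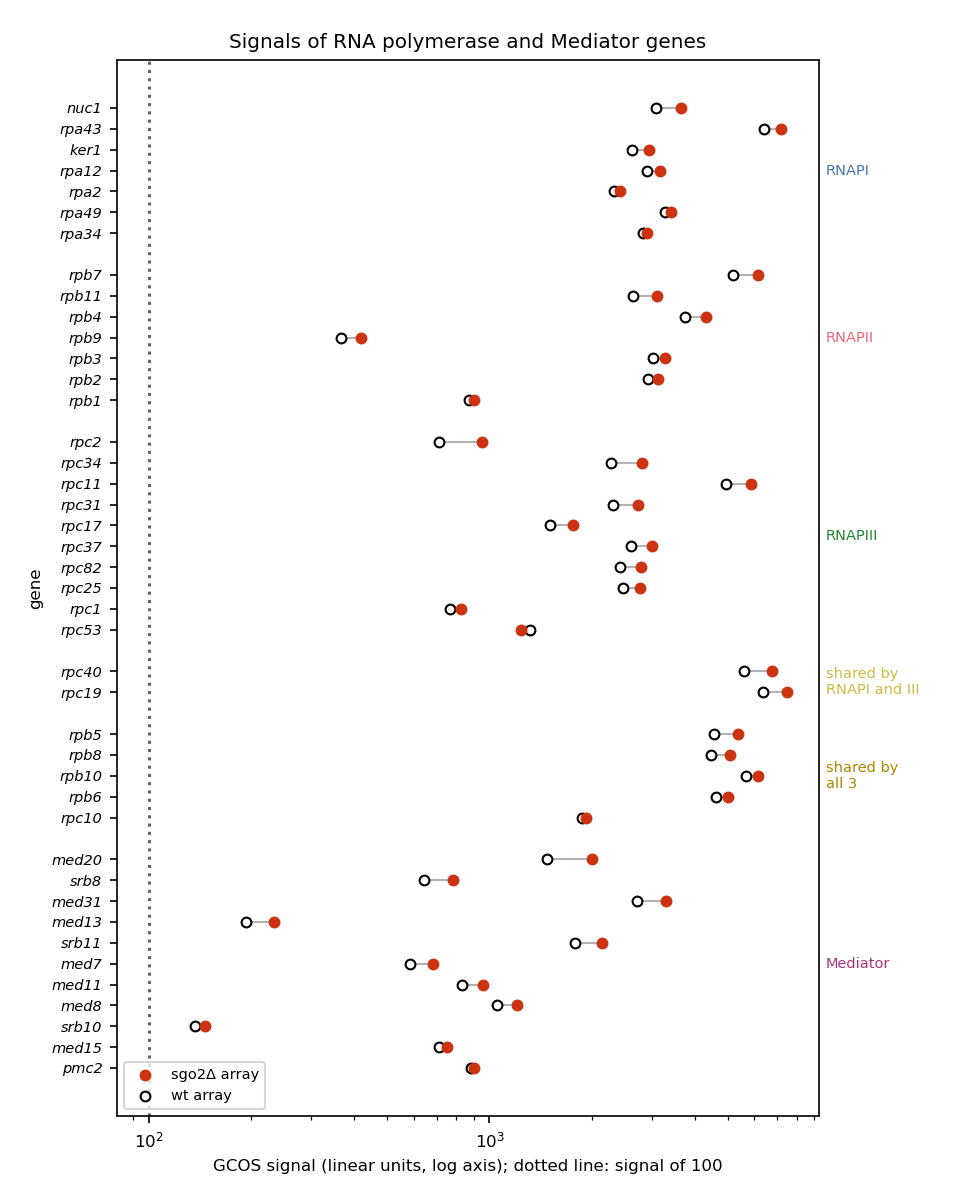
Signal of each of the 42 genes (log axis, linear GCOS units) on the *sgo2*Δ array (filled red) and the wt array (open), by complex and, within it, in order of the log2 ratio. The filled point lies to the right of the open one for 41 genes and to its left for *rpc53*, and the largest gaps are those of *med20* and *rpc2*.

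The catalytic core of RNAPI is formed by the products of *nuc1* (SPBC4C3.05c), which encodes the largest subunit, and *rpa2*, which encodes the second largest. The signal of *nuc1* was 3642 in *sgo2*Δ and 3079.8 in wt (log2 ratio 0.24), the largest ratio of the 7 RNAPI genes. That of *rpa2* was 2424 in *sgo2*Δ and 2317 in wt (0.07). The genes of the 2 core subunits of RNAPI thus lay on either side of the median gene. On the deposited scale the stalk genes *rpa43* and *ker1* gave nearly the same ratio. The signal of *rpa43* was 7169 in *sgo2*Δ and 6401 in wt (0.16), and that of *ker1* was 2931 in *sgo2*Δ and 2623 in wt (0.16). In budding yeast, Rpa43 is the subunit that the initiation factor Rrn3 contacts.

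The genes *rpa34* and *rpa49* encode a heterodimer that acts like the RNAPII initiation factor TFIIF, built into the enzyme. Both lay below the median gene, with *rpa34* at 2903 in *sgo2*Δ and 2826 in wt (log2 ratio 0.04) and *rpa49* at 3404 in *sgo2*Δ and 3280.2 in wt (0.05). Their ratios differed by 0.01. The zinc-ribbon subunit gene *rpa12*, whose product takes part in RNA cleavage and termination, was at 3161 in *sgo2*Δ and 2895 in wt (0.13), at the median gene. Over the 7 RNAPI genes the median log2 ratio was 0.13, with 3 genes above the median gene and 4 below it.

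In RNAPII, the largest subunit Rpb1 carries the C-terminal tail of heptad repeats whose phosphorylation marks the stages of transcription. Its gene *rpb1* (SPBC28F2.12) had a signal of 899 in *sgo2*Δ and 871 in wt (log2 ratio 0.05), the lowest ratio of the 7 RNAPII genes. The gene of the second largest subunit, *rpb2*, was at 3122 in *sgo2*Δ and 2915 in wt (0.10). The signals of the RNAPII core genes were thus 1.03-fold (*rpb1*) and 1.07-fold (*rpb2*) those of wt, and both lay below the median gene.

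The 5 smaller RNAPII genes had higher ratios than both core genes, and all but *rpb3* lay above the median gene. The stalk genes *rpb4* and *rpb7*, whose products bind the emerging RNA, were at 4336 and 6143 in *sgo2*Δ, against 3763 and 5195 in wt, with log2 ratios of 0.20 for *rpb4* and 0.24 for *rpb7*. The pair *rpb3* and *rpb11*, on which assembly of the enzyme begins, was less even: *rpb11* was at 3109 in *sgo2*Δ and 2635 in wt (0.24) and *rpb3* at 3268 in *sgo2*Δ and 3028 in wt (0.11). The zinc-ribbon gene *rpb9*, which in budding yeast bears on start site choice and fidelity, had a dim probe set, at 419 in *sgo2*Δ and 367 in wt (0.19). The median of the 7 RNAPII genes was 0.19, with 4 genes above the median gene and 3 below it.

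RNAPIII held both the highest and the lowest ratio of any polymerase gene. The gene of the second largest subunit, *rpc2* (SPAC4G9.08c), had a signal of 953 in *sgo2*Δ and 713 in wt, a log2 ratio of 0.42 (1.34-fold) and rank 63 from the top of 2793 genes. The gene *rpc53* (SPCC18.07) had a signal of 1237 in *sgo2*Δ and 1316 in wt, a log2 ratio of -0.09 and rank 165 from the bottom. It was the sole member with a lower signal in *sgo2*Δ on the deposited scale. Its partner *rpc37*, whose product forms with Rpc53 a TFIIF-like heterodimer needed for termination in budding yeast, was at 2995 in *sgo2*Δ and 2609 in wt (0.20). The ratios of these partners differed by 0.29, the widest gap of the 9 pairs of binding partners compared.

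Between these ends the other RNAPIII genes had log2 ratios of 0.11 to 0.30. The trimer that joins the enzyme to its initiation factor TFIIIB is encoded by *rpc34*, at 2799.6 in *sgo2*Δ and 2267 in wt (log2 ratio 0.30), *rpc31*, at 2724 in *sgo2*Δ and 2307 in wt (0.24), and *rpc82*, at 2779.9 in *sgo2*Δ and 2424 in wt (0.20). All 3 lay above the median gene, as did the stalk genes *rpc17* at 1764 in *sgo2*Δ and 1502 in wt (0.23) and *rpc25* at 2765 in *sgo2*Δ and 2459 in wt (0.17). The zinc-ribbon gene *rpc11*, whose product cleaves RNA and acts in termination and reinitiation, was at 5873 in *sgo2*Δ and 4949 in wt (0.25). The largest subunit gene *rpc1* was at 825 in *sgo2*Δ and 763 in wt (0.11), just below the median gene. The median of the 10 RNAPIII genes was 0.22, with 8 genes above the median gene and 2, *rpc1* and *rpc53*, below it.

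The genes of subunits shared between the enzymes did not form a single group. The genes *rpc40* and *rpc19* encode the assembly pair of RNAPI and RNAPIII, which corresponds to Rpb3 and Rpb11 of RNAPII. The signal of *rpc40* was 6775 in *sgo2*Δ and 5587 in wt (log2 ratio 0.28), and that of *rpc19* was 7479 in *sgo2*Δ and 6364 in wt (0.23). Both are bright probe sets, and genes of like signal had lower medians than all genes measured (0.10 for *rpc40* and 0.08 for *rpc19*). The pair stood 0.18 and 0.16 above these medians.

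The 5 genes of subunits common to all 3 polymerases spread around the median gene. Above it lay *rpb5* at 5354 in *sgo2*Δ and 4554 in wt (log2 ratio 0.23) and *rpb8* at 5087.5 in *sgo2*Δ and 4459 in wt (0.19). At the median gene were *rpb10* at 6142 in *sgo2*Δ and 5651 in wt (0.12) and *rpb6* at 5026 in *sgo2*Δ and 4629.5 in wt (0.12). Relative to the median gene both were at -0.01, and after quantile normalization they turned to 0.04 (*rpb10*) and 0.02 (*rpb6*). The lowest was *rpc10*, the gene of the small zinc-binding subunit also named Rpb12, at 1919.8 in *sgo2*Δ and 1875 in wt (0.03).

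Mediator gave the highest ratio of all members. In the head, which contacts RNAPII, *med20* (SPAC17G8.05) had a signal of 2003 in *sgo2*Δ and 1479.6 in wt, a log2 ratio of 0.44 (1.35-fold) and rank 54 from the top of 2793 genes. The other head genes under the rule were nearer the median gene, with *med11* at 955 in *sgo2*Δ and 828 in wt (0.21) and *med8* at 1204 in *sgo2*Δ and 1054 in wt (0.19). Med20 binds Med18 in a submodule of the head, and *med18* was at 2971 in *sgo2*Δ and 2626 in wt (0.18), so the gene of its partner did not share its ratio.

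The middle module links the head to the tail. Of its genes, *med31* was at 3289 in *sgo2*Δ and 2715 in wt (log2 ratio 0.28), *med7* at 683 in *sgo2*Δ and 586 in wt (0.22), and *pmc2*, the gene of Med1, at 898 in *sgo2*Δ and 884 in wt (0.02). The last was the lowest Mediator gene under the rule. The tail gene *med15*, whose product is a target of activators in budding yeast, was at 752 in *sgo2*Δ and 708 in wt (0.09).

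The kinase module is formed by the cyclin-dependent kinase Srb10 (Cdk8), its cyclin Srb11, and Srb8 (Med12) and Med13, and it can hold Mediator off RNAPII. On the deposited scale the large subunit genes *srb8* and *med13* gave almost the same ratio. The signal of *srb8* was 779.8 in *sgo2*Δ and 642 in wt (log2 ratio 0.28), and that of *med13* was 233 in *sgo2*Δ and 193 in wt (0.27). The cyclin gene *srb11* was at 2145 in *sgo2*Δ and 1785 in wt (0.27). The kinase gene *srb10* was at 146 in *sgo2*Δ and 137 in wt (0.09), close to the floor of 100. The log2 ratios of the 200 genes nearest in signal to *srb10* had an SD of 0.26, and those nearest to *med13* one of 0.22. For *srb8* and *srb11* these SDs were smaller, 0.14 and 0.11. On the deposited scale the difference between *srb10* and the rest of its module was smaller than the SD at the brightness of *srb10*. After quantile normalization the log2 ratio was 0.14 for *srb8*, 0.09 for *srb11*, -0.01 for *med13* and -0.28 for *srb10*, so *srb8* and *med13* lay further apart. The differences from *srb10* then exceeded the SD of 0.26, which was taken on the deposited scale. The median gene was at -0.02, so *med13* stayed above the median gene and *srb10* below it.

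The complexes were then set side by side. The median log2 ratio was 0.13 for RNAPI, 0.19 for RNAPII, 0.22 for RNAPIII and 0.22 for Mediator, and the ranges overlapped throughout (0.04 to 0.24, 0.05 to 0.24, -0.09 to 0.42 and 0.02 to 0.44, in that order). The largest differences between these medians were those of Mediator and of RNAPIII from RNAPI, 0.09 in both cases. Relative to genes of like signal, the medians were -0.03 for RNAPI, 0.08 for RNAPII, 0.05 for RNAPIII and 0.10 for Mediator. RNAPII and RNAPIII thus changed places between the 2 ways of reckoning, while RNAPI was the lowest of these 4 classes in both. Without replicate arrays, no order of the complexes can be tested.

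**Figure D2:**
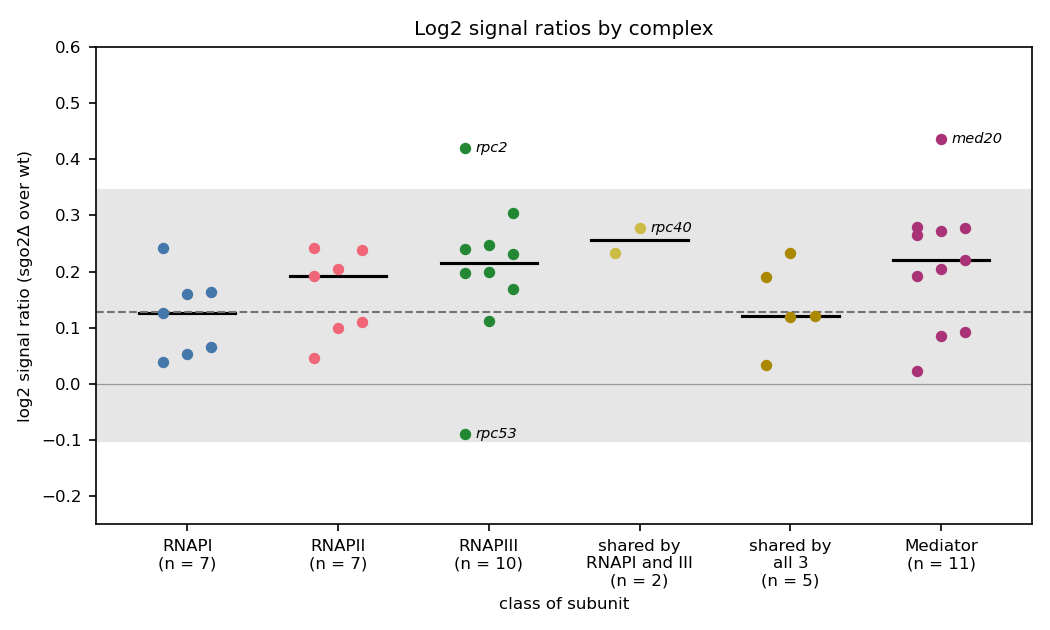
Log2 signal ratio (*sgo2*Δ over wt) of each gene, 1 point per gene, by class of subunit, with the median of the class as a black bar. The dashed line is the median of the 2793 genes measured (0.13), the grey band holds their central 90% (-0.10 to 0.35), and *rpc2* and *med20* alone lie outside the band.

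The genes of the largest and of the second largest subunit did not give the same ratio in different enzymes. Over the largest subunits, the log2 ratio was 0.24 for *nuc1*, 0.05 for *rpb1* and 0.11 for *rpc1*. Over the second largest, it was 0.07 for *rpa2*, 0.10 for *rpb2* and 0.42 for *rpc2*. The 6 genes of the largest and second largest subunits had a median of 0.11, against 0.19 for the 25 smaller polymerase subunits, and 4 of the 6 lay below the median gene. The 3 zinc-ribbon genes ran from 0.13 to 0.25. The 6 stalk genes all lay above the median gene, with log2 ratios between 0.16 and 0.24. Relative to genes of like signal, *ker1* (-0.0017) and *rpc25* (0.0049) lay at the median. The rest ran from 0.076 (*rpc17*) to 0.13 (*rpb7*) above it. Across all 42 members the log2 ratio bore little relation to gene length (Spearman's rho -0.11) or to mean signal (rho 0.08), both as descriptions across genes that share the same 2 arrays.

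The log2 ratios of binding partners were compared in 9 pairs within the rule, whose median difference was 0.05, against 0.12 over all pairs of genes measured. Of the 9 pairs, 6 differed by at most 0.06 on the log2 scale (*rpa43* and *ker1*, *rpa34* and *rpa49*, *rpb4* and *rpb7*, *rpc17* and *rpc25*, *rpc19* and *rpc40*, *srb8* and *med13*). The others were *rpb3* and *rpb11* (0.13), *srb10* and *srb11* (0.17) and *rpc37* and *rpc53* (0.29). Of all pairs of genes measured, 27.2% differed by no more than the widest of the 6, a limit set after the values were seen. These differences hold for the deposited scale. After quantile normalization *srb8* (0.14) and *med13* (-0.01), *rpa43* (0.08) and *ker1* (-0.02), and *rpb4* (0.07) and *rpb7* (0.13) lay further apart. The gap of *rpc17* (0.062) and *rpc25* (-0.0017) hardly changed. The pairs *rpa34* (-0.13) with *rpa49* (-0.12) and *rpc19* (0.16) with *rpc40* (0.19) stayed close. The members were brighter than all genes measured (median signal 2602 against 1511) and less spread (quartiles 0.11 and 0.24 against 0.05 and 0.22). Pairs of members that are not partners were not compared, so whether the smaller differences go with binding was not tested. The pair of *med20* with *med18*, which is outside the rule and not among the 9, differed by 0.26.

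Single genes were next set against the array's spread at their own brightness, taken as the SD of the log2 ratios of the 200 genes nearest in mean signal. More than 2 of these SDs above the median of such genes lay 3 of 42 members, *med20* (2.30 SDs), *rpc2* (2.30) and *rpc40* (2.16), while 2.36% of all genes measured did. More than 2 SDs below it lay 1 of 42, *rpc53* (-2.04), while 3.33% of all genes did. These shares of all genes correspond to about 1 of 42 in each direction. All 4 are single values with no second array behind them.

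**Figure D3:**
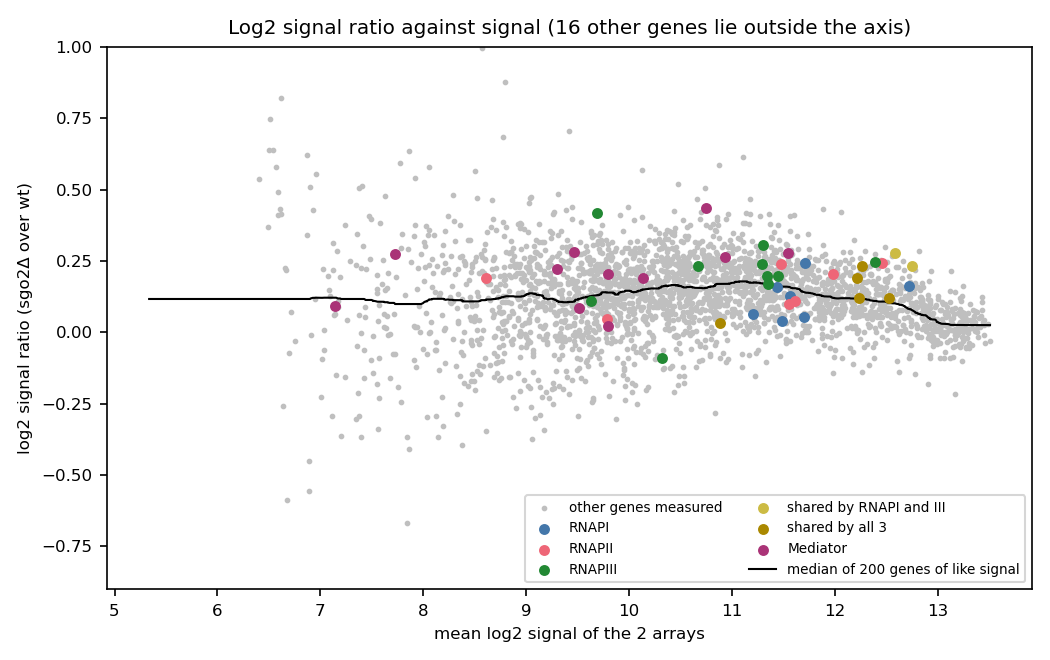
Log2 signal ratio (*sgo2*Δ over wt) against the mean log2 signal of the 2 arrays for the members (coloured by class) and all other genes measured (grey), with a line for the median of the 200 genes nearest in signal. The grey cloud widens at low signal and its median falls at high signal, and 16 other genes lie outside the axis.

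The members lie on all 3 chromosomes, 18 on chromosome 1, 17 on chromosome 2 and 7 on chromosome 3. Their median log2 ratios were 0.23, 0.17 and 0.13, while all genes measured had 0.13, 0.13 and 0.12. In gene order, counted in protein-coding genes of the assembly ASM294v3 from the nearer end of the listed sequence, the outermost members were *rpc40*, the 40th gene from the right end of chromosome 2, and *rpc37*, the 46th from the left end of chromosome 3. The next was *med7*, the 138th from the right end of chromosome 2.

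The position of *rpc40* (SPBC1289.07c) is of interest because the genes nearest that end had the higher signals in *sgo2*Δ. Of 10 genes measured between *rpc40* and the right end, the outer 5 (*gal1*, *gal10*, *gal7*, *say1* and *cao2*) had log2 ratios of 0.998 to 2.33. The 5 next to *rpc40* on that side had 0.12 to 0.41, with a median of 0.18. On its other side, the first 10 genes measured had -0.19 to 0.26, with a median of 0.12. The ratio of *rpc40*, 0.28, was thus higher than those of these 10 genes on its inner side and within the range of the 5 on its outer side. Further inward most genes lay below it as well, but some did not, such as *sid4* (0.28), *ogm4* (0.32) and *eso1* (0.35). Whether its place has a part in its ratio was not tested.

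**Figure D4:**
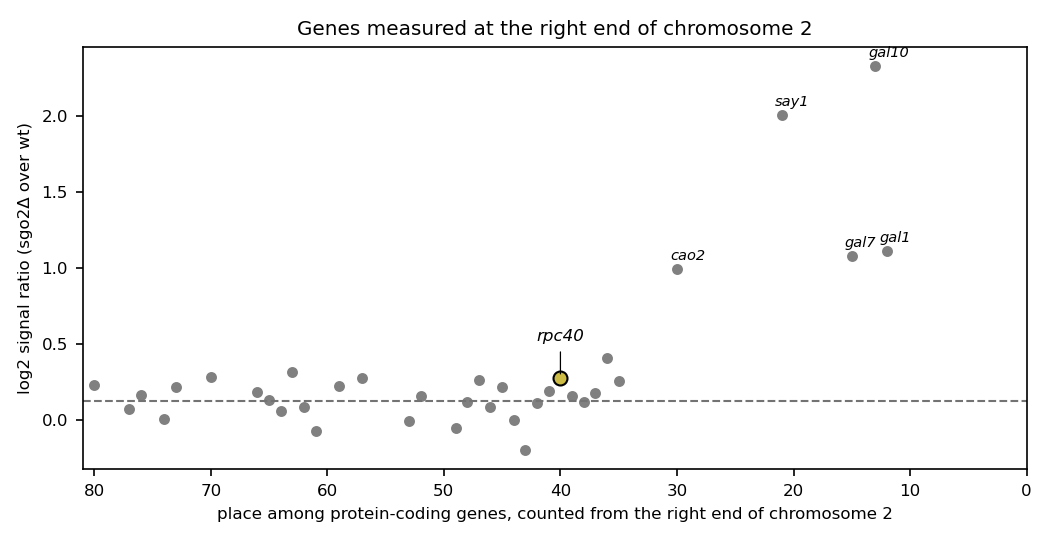
Log2 signal ratio (*sgo2*Δ over wt) of the genes measured near the right end of chromosome 2, against their place among protein-coding genes counted from that end, which lies on the right. The outer 5 genes stand at 0.998 or above, and *rpc40* (marked), at place 40, has a ratio of 0.28, above the dashed median of all genes (0.13).

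The 3 other members more than 2 SDs from genes of like signal were also set beside their neighbours. Within 5 protein-coding genes on either side, the 6 genes measured around *rpc2* had log2 ratios of 0.09 to 0.21, and the 6 around *med20* had 0.13 to 0.22. The 4 genes measured around *rpc53* had 0.08 to 0.30. Of all 42 members, 10 (23.8%) lay outside the range of the genes measured beside them, these 3 included, while 31.6% of all genes did, so lying outside it sets no member apart.

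The remaining Mediator subunits, which the platform names by other symbols, gave much the same picture. Of 11 such genes, 10 were measured, with a median log2 ratio of 0.18 and 0 of them 0.32 or more from the median gene in either direction. Of all genes measured, 1.83% lay that far above and 2.08% that far below, so a count of 0 among 10 sets nothing apart. The highest was *srb6*, the gene of the head subunit Med22, at 566 in *sgo2*Δ and 435 in wt (0.38). The lowest was *med6*, of the head as well, at 308 in *sgo2*Δ and 333 in wt (-0.12). The scaffold gene *med14* was at 749 in *sgo2*Δ and 672 in wt (0.16), and *srb4*, the gene of the head subunit Med17, at 414 in *sgo2*Δ and 358 in wt (0.21). Over all 21 Mediator genes measured the median was 0.21, with 15 above the median gene and 6 below it.

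The factors that work with the polymerases were followed from lists of gene names. Of 19 general RNAPII initiation factors, 17 were measured, with a median log2 ratio of 0.14 and a range of -0.12 to 0.31. The TATA-binding protein gene *tbp1*, which serves all 3 polymerases, was at 7613 in *sgo2*Δ and 6989 in wt (0.12). The lowest was *ptr8*, a helicase gene of TFIIH, at 1313 in *sgo2*Δ and 1425 in wt (-0.12), and the highest was *tfb4*, also of TFIIH, at 991 in *sgo2*Δ and 799.7 in wt (0.31).

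Among 19 genes of elongation factors and of enzymes that act on the Rpb1 tail, 15 were measured, with a median log2 ratio of 0.15. The kinase gene *lsk1*, whose product phosphorylates the Rpb1 tail, was at 513 in *sgo2*Δ and 651 in wt (-0.34), rank 2780 from the top of 2793. It was the sole gene of these lists 0.32 or more from the median gene. Of all genes measured, 2.08% lay that far below the median gene and 1.83% that far above it. A count of 1 over these lists is near those shares and does not set them apart. The gene of its cyclin, *lsc1*, was at 903 in *sgo2*Δ and 848 in wt (0.09), and that of the further subunit of its complex, *lsg1*, at 1621 in *sgo2*Δ and 1299 in wt (0.32). The kinase gene *cdk9* (0.16), the elongation factor genes *spt5* (0.18) and *tfs1* (0.22) and the tail phosphatase gene *fcp1* (0.22) lay near the median gene.

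Of 7 RNAPI factor genes, 6 were measured, with a median of 0.22 and the initiation factor gene *rrn3* at 2265 in *sgo2*Δ and 1846 in wt (0.30). Of 9 RNAPIII factor genes, 8 were measured, with a median of 0.16. Among them were *brf1* of TFIIIB at 441 in *sgo2*Δ and 396 in wt (0.16) and *maf1*, a repressor of RNAPIII, at 745 in *sgo2*Δ and 628 in wt (0.25). In both lists, 0 genes were 0.32 or more from the median gene. At the shares of all genes (1.83% above and 2.08% below), lists this short would seldom hold any, so these counts set neither apart.

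**Figure D5:**
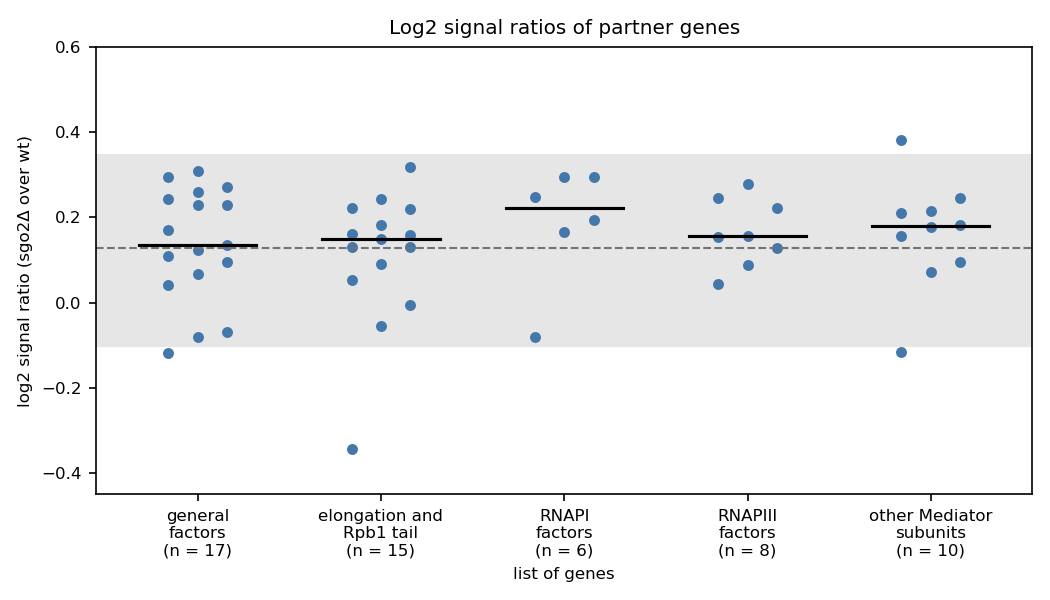
Log2 signal ratio (*sgo2*Δ over wt) of each gene measured in 5 lists of partner genes, 1 point per gene, with list medians as black bars, the median of all genes measured dashed (0.13) and their central 90% in grey. The low point in the second list is *lsk1* (-0.34), and the high point in the last is *srb6* (0.38).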

How the data were processed

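Poly(A) RNA of 1 *sgo2*Δ and 1 wt culture was hybridized to 1 array each. The authors processed the scans with GCOS 1.4 at default settings and deposited linear signal intensities, scaled per array, with *S. cerevisiae* probe sets masked (5748 of 10928 are listed at 0). The scale factors and target were not given in the sources used here. Scaling and hybridization can move a whole array, which is why ratios are set against the median gene.

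Gene names came from the platform annotation, matched by gene identifier to the table of ASM294v3, whose coordinates were used only for gene order. Of 5180 unmasked probe sets, the 2914 that name 1 gene of that table gave 2896 genes. Log2 signals were averaged for the 14 genes with more than 1 probe set. Medians and shares over all genes measured leave out the other unmasked probe sets. The floor was a signal of 100. The spread at a given signal was the SD over the 200 nearest genes, without the 16 genes that differed 2-fold. Symbols of the partner lists that denote another *S. pombe* gene (*spn1*, *rtf1*, *pmc1*) were replaced or left out.

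Members, lists and alternatives were chosen with earlier results of these data known. The rule for named genes asked for both signals of the 3 highest and 3 lowest genes of each class and of the core, zinc-ribbon, shared and kinase module subunits, and the rest of the 42 are given likewise. Partner genes and neighbours were picked for the text after their values were seen. Alternatives were the pseudocount, centring, quantile normalization, the floor, the probe set, the fold and the makeup of the classes. The tools were matplotlib 3.10.9, scipy 1.17.1, numpy 2.4.6 and pandas 2.3.3 under Python 3.11.15.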

Additional observations from a re-analysis of the deposited data

How the results depend on the processing

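No paired analysis was possible because neither strain was hybridized to more than 1 array, and leaving one out would leave no comparison. The counts of members past 2-fold, past 1.5-fold and 0.32 or more (log2) from the median gene were 0 in both directions under every alternative run for them. Medians of the classes shifted with the scaling. Centring by construction takes away the 0.13 of the median gene. Quantile normalization, run over 5180 unmasked probe sets, left the median gene at -0.02. After centring the class medians were -0.0013 for RNAPI, 0.063 for RNAPII, 0.087 for RNAPIII, 0.13 for the pair shared by RNAPI and RNAPIII, -0.0082 for the subunits shared by all 3 and 0.092 for Mediator. With quantile normalization they were -0.047 for RNAPI, 0 for RNAPII, 0.044 for RNAPIII, 0.17 and 0.018 for the 2 shared classes and 0.037 for Mediator. Relative to genes of like signal, an alternative chosen after seeing the data, they were -0.032, 0.078, 0.055, 0.17, 0.014 and 0.097 in the same order of classes. The medians of RNAPIII and of Mediator stayed above that of RNAPI in all settings run. The gap was 0.055 to 0.091 for RNAPIII and 0.062 to 0.13 for Mediator. Centring takes the same constant from every gene, each member has 1 probe set, and all members passed the floor of 100. So centring, the choice of probe set and a lower or absent floor could not change these gaps. After quantile normalization 17 of 42 members had a log2 ratio below 0, and 2, *rpb6* and *rpb10*, turned to the other side of the median gene. Among values of single members under the alternatives, 71 moved by more than the SD of genes of like signal. Of these, 34 did so under centring and 37 under quantile normalization, while 8 and 5 moved by less under these settings. With the pseudocount all 42 moved by less than that SD. The other floors and the choice of probe set cannot change a member's ratio, so the rest of the 222 values not past that SD did not move. Signal over background limits *srb10* and *med13*, and *srb10* has no value with a floor of 200.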
